A study of Mus musculus with 64 samples.

Results

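Active Treg cells in which a silenced Foxp3 gene had been switched back on were compared between late and early days after the switch. The comparison rests on 8 active plusFoxp3 libraries of the 64 bulk RNA-seq libraries of the series, chosen by their labels as the active plusFoxp3 libraries of days 14 and 28 (late, 4 libraries) and of days 3 and 7 (early, 4 libraries). The 8 active minusFoxp3 libraries of the same days served as the control for time alone, and 8 resting plusFoxp3 libraries were used in 1 further comparison. Each day and arm had 2 libraries, which the study describes as biological replicates, and no label ties a library to an animal.

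The plusFoxp3 and minusFoxp3 cells came from spleen and lymph nodes of mice with a reversible null allele, Foxp3-LSL. In this allele a loxP-flanked Thy1.1 and stop cassette keeps Foxp3 from being made. The plusFoxp3 mice had the genotype Foxp3-LSLCD4-CreERT2, carried a tamoxifen-dependent Cre under the Cd4 promoter, and received a single dose of 4-hydroxytamoxifen (4-OHT) 3, 7, 14 or 28 days before sorting. The minusFoxp3 mice had the genotype Foxp3-LSLCD4-WT, lacked CreERT2, and received 4-OHT with the same timing. Per the study's methods, females heterozygous for the allele were used, so Treg cells with a normal Foxp3 gene were present in the same animals. Restored cells were sorted as Foxp3-GFP-positive and control cells as Thy1.1-positive "wannabe" cells, and active cells as CD44-high and CD62L-low. Since Cre is under the Cd4 promoter, the labels do not limit its activity to cells that transcribe Foxp3. Active Treg cells of untreated Foxp3-GFP mice (2 libraries) were the reference for the normal Treg state, and untreated day 0 libraries of both genotypes are given where they help to read a level. The study gives mouse ages as a range over many strains, not for each group used here.

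Foxp3 is the transcription factor that defines Treg cells, which restrain other immune cells, and cells that transcribe the gene without making the protein can take on features of effector T cells, interleukin 17 production among them. Active Treg cells are the antigen-experienced fraction, which divides more than the resting fraction and carries effector molecules, chemokine receptors and receptors of the TNF family. Restoring the protein in such cells asks which parts of the Treg state appear within days and which take weeks, and the present comparison asks what still changes after the first week. In bulk RNA, fewer cells of a kind and less RNA of a gene per cell cannot be told apart.

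The 16 active libraries of days 3 to 28 held 40813000 to 57419138 read pairs assigned to genes. Levels are read pairs per 1000000 assigned read pairs (CPM) scaled with TMM factors, and late against early differences are log2 fold changes between the mean of the late and the mean of the early days, with standard errors (SE) and Benjamini-Hochberg adjusted p-values of edgeR's quasi-likelihood test across 20776 genes. A gene was called at an adjusted p under 0.05. The 2 minusFoxp3 libraries of day 7 differed most among the replicate pairs, with a chi-square per gene of 199 against 23.8 to 84.7 in the other pairs. Markers of other cell types were low. Summed over 12 B cell genes they reached 57.6 to 110 CPM in early and 51.8 to 82.3 CPM in late plusFoxp3 libraries, and summed over the 8 of 9 listed CD8 T and NK cell genes found in the files, 14.6 to 24.7 and 15.7 to 25.5 CPM. Hemoglobin and platelet genes summed to at most 4.80 CPM in the late and 37.4 CPM in the early libraries, the latter in the day 3 replicate 2 library, where Hbb-bs was at 13.5 CPM. The 10 CD4 T cell genes, by comparison, summed to 8610 to 11400 CPM. In the minusFoxp3 arm replicates 1 and 2 stood apart on each day in 35 immediate-early and stress genes, which summed to 11460 to 14540 CPM in replicate 1 and 26770 to 32510 CPM in replicate 2.

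Foxp3 itself did not pass the test between late and early days. The gene (chromosome X, 7439883 to 7461484, GRCm39) was at 427 and 569 CPM at day 3, 613 and 523 at day 7, 512 and 536 at day 14, and 604 and 592 at day 28 in plusFoxp3 cells. Early and late libraries overlapped (log2 fold change 0.07, SE 0.14, edgeR adjusted p = 0.906). In minusFoxp3 cells Foxp3 transcript stayed between 43.2 and 61.8 CPM, and the GFP Treg cells had 743 and 822 CPM. Thy1, whose reads include those of the Thy1.1 cassette, ranged from 76.9 to 130 CPM in plusFoxp3 and from 376 to 577 CPM in minusFoxp3 libraries, without overlap. Both genes therefore matched the labelled arm in each of the 16 libraries.

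Between the first week and days 14 and 28, 273 genes changed. Of the 20776 genes tested, 75 (0.361%) rose and 198 (0.953%) fell in plusFoxp3 cells. The genes that fell included 28 of 37 listed cell division genes and Il17a, the signature cytokine of Th17 cells. Those that rose included 5 of 26 tested surface and effector genes of Treg cells. Of the 75 and 198 genes, 64 and 183 had no overlap between the 4 late and the 4 early libraries. Over all genes tested, 3.88% had every late library above every early one and 4.37% had every late library below. Median changes of the called genes were 1.25 and -1.46 on the log2 scale, and the median over all genes was 0.03. Both the separation and these medians come from the libraries that made the calls, so they are not further support for them. Gene models known only by a clone, predicted-gene or accession name made up 13 of the genes that rose and 14 of those that fell, and 1 gene segment of the immunoglobulin loci also rose. The calls depended on the first and the last day. Without day 28, 1 gene was called (Ly6a), although 271 of 272 fitted genes kept their direction, and without day 3, 4 rose and 36 fell. When the day 3 replicate 2 library with hemoglobin reads was left out, 17 rose and 92 fell, 105 of them among the 273. Without 1 of the day 7 libraries 142 or 179 were called, and without 1 of the day 14 libraries 158 or 125.

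In minusFoxp3 cells of the same days, no gene was called (0% of 20776) by edgeR or DESeq2, with 1477 genes at an unadjusted edgeR p under 0.05. The 75 genes that rose in plusFoxp3 cells had a median change of 0.07 there, with 46 values above and 29 below 0, and the 198 that fell had a median of -0.04, with 88 above and 110 below 0. The 3 genes with the smallest p in each direction, none of which passed, were Lima1, Lipa and Pde8a above 0 and Igha, Igkc and Ifit3b below 0, so that 2 of the latter were immunoglobulin constant-region genes. Igha was at 8.06 and 35.9 CPM in the day 3 and at most 1.99 CPM in the other minusFoxp3 libraries. The absence of calls depended on 1 library. Without replicate 2 of day 7, which left its partner as the lone day 7 library and assumed to vary like the other groups, 754 genes were called in the minusFoxp3 arm, and without any day 7 library 0 were.

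**Figure D1:**
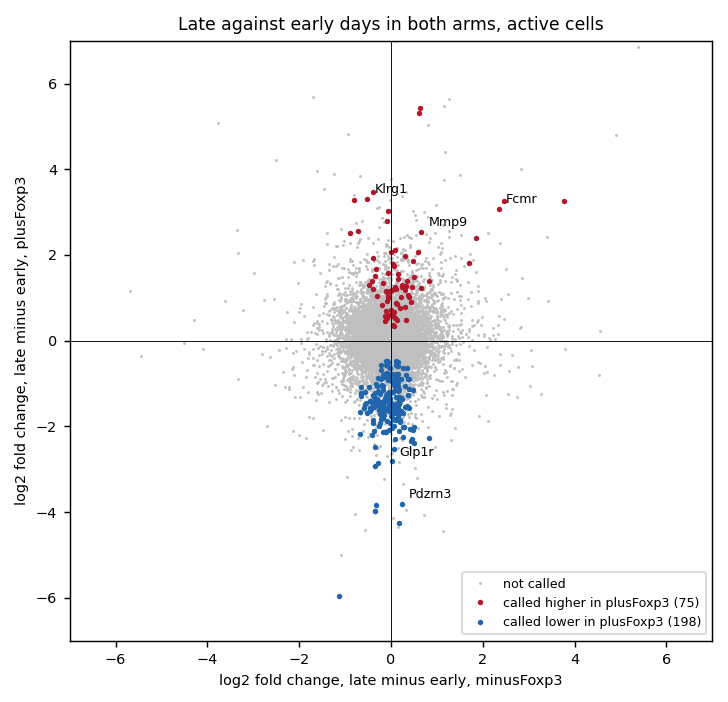
Each point is a gene, with the log2 fold change of late against early days in minusFoxp3 cells on the horizontal and in plusFoxp3 cells on the vertical axis. Most of the 75 and 198 called genes lie near the vertical axis, Fcmr lies to its right at 2.35, and 3 of the 20776 genes fall outside the axes.

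Whether the change over time differed between the arms was tested directly. The difference was called for 18 genes (0.0866%), 1 with a more positive and 17 with a more negative change in plusFoxp3 cells, and all 18 belonged to the 273. The gene with the more positive change was Ly6a. Among the 17 were Pdzrn3, Glp1r, Zfp385c, Mstn and Prr5l, and the cell division genes Nek2, Bub1, Top2a, Rrm2, Kif11, Esco2, Mybl2 and Uhrf1. The count depended on the libraries used, and most on which day 7 minusFoxp3 library was kept. It was 1423 without the day 7 minusFoxp3 replicate 2 library, from 2 to 36 when any other library was left out, 0 without day 3, 0 without day 28, and 304 with DESeq2.

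Cell division genes showed the broadest decrease. Of 37 listed genes of DNA replication and mitosis, all tested, 28 fell, 0 rose, and the other 9 had values below 0 without passing. The median change was -1.42 against 0.03 over all genes, and in 35 of the 37 every late library lay below every early one. Over all genes tested, 4.37% had every late library below and 0.953% fell. In minusFoxp3 cells the median was -0.11, with 16 of the 37 values above 0. Without day 3, 6 of the list were called, with a median of -1.18, and without day 28, 0 were, with a median of -1.33. All 37 values were below 0 in both cases. The day 3 replicate 2 library was the highest of the 8 for 35 of the 37 genes. Without it 16 were called, with a median of -1.31, and without the day 14 replicate 2 library 18 were.

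Promoters of 4 such genes are shown because they moved together. CCAAT boxes, bound by the factor NF-Y, are a known feature of promoters of cell division genes. Of the 37 listed genes, 30 had a promoter in the RefSeq table (GRCm38.p6). Of these 30, 24 (80.0%) held CCAAT on either strand within 250 bases before the start. The share was 34.5% of all 27025 promoters and 36.2% of the 12328 promoters of genes tested. The 120 bases before the start of the 4 listed genes with the smallest p follow, read along the gene's strand. Capitals mark CCAAT and its reverse complement ATTGG, at chr13:100786487-100786606 (minus strand) for Ccnb1, chr11:99024190-99024309 (minus strand) for Top2a, chr12:24708134-24708253 (plus strand) for Rrm2 and chr2:127831860-127831979 (minus strand) for Bub1.
Ccnb1: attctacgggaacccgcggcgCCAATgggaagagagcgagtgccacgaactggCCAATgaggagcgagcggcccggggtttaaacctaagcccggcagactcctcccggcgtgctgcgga
Top2a: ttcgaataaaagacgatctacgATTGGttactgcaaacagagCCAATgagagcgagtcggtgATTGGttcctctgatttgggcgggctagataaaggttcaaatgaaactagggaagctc
Rrm2: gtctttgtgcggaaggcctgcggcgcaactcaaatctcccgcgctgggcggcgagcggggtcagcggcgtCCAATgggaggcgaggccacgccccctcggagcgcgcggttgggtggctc
Bub1: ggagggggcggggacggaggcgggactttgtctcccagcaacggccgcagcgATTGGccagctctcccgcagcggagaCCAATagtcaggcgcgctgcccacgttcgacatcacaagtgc
These matches describe the letters and do not show binding, and a part of NF-Y in the changes was not tested.

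Bub1, a kinase of the mitotic spindle checkpoint (chromosome 2, 127643036 to 127673785), was at 18.6 and 12.8 CPM at day 3, 10.4 and 9.22 at day 7, 3.6 and 2.03 at day 14, and 3.47 and 2.40 at day 28. The early and late libraries were fully separated (log2 fold change -2.11, SE 0.28, edgeR adjusted p = 0.00131). In minusFoxp3 cells the same gene was at 3.40 and 3.58, 7.73 and 10.9, 12.8 and 9.60, and 3.72 and 3.68 CPM on the 4 days, so its level there was highest in the middle days. The plusFoxp3 minus the minusFoxp3 log2 fold change was -2.29 (edgeR adjusted p = 0.0430). Top2a, the topoisomerase that untangles replicated DNA, was at 108 and 180 CPM at day 3, 116 and 105 at day 7, 54.9 and 42.8 at day 14, and 37.1 and 35.9 at day 28. No late library reached the early range, and the log2 fold change was -1.57 (SE 0.20, adjusted p = 0.000835 by edgeR). Ccnb1 (cyclin B1) and Rrm2, a subunit of ribonucleotide reductase, also fell, by 1.84 and 1.56 on the log2 scale (edgeR adjusted p = 0.000835 and 0.000838). The named kinesins Kif18b and Kif4, the mitotic kinases Ttk and Nek2, and Depdc1b and Ankle1 each fell by more than 2 on the log2 scale, from -2.13 for Ankle1 to -2.85 for Ttk. Mki67, which encodes the proliferation antigen Ki-67, was at 70.4 to 125 CPM early and 28.8 to 45.4 CPM late.

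Over the list, the median log2 change was -0.51 from day 3 to day 7, -1.06 from day 7 to day 14 and -0.10 from day 14 to day 28, and no single gene of the whole table was called at either of the first 2 steps, which compare 2 libraries with 2. Summed over the 37 genes, plusFoxp3 cells had 2537 and 3708 CPM at day 3, 2484 and 2309 at day 7, 1405 and 1478 at day 14, and 1293 and 1359 at day 28. Before 4-OHT the same genotype had 1876 and 1395 CPM, and the GFP Treg cells had 1591 and 1519 CPM. The early libraries thus lay above the untreated ones of their own genotype, and the late libraries below both GFP Treg libraries. Of these untreated libraries, that at 1395 CPM lay within the late range and that at 1876 CPM above it. Untreated minusFoxp3 libraries had 2458 and 2057 CPM. The minusFoxp3 cells had 1558 and 1552 CPM at day 3, 2258 and 2728 at day 7, 2763 and 2102 at day 14, and 1648 and 1652 at day 28, a pattern that a late against early contrast averages out.

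**Figure D2:**
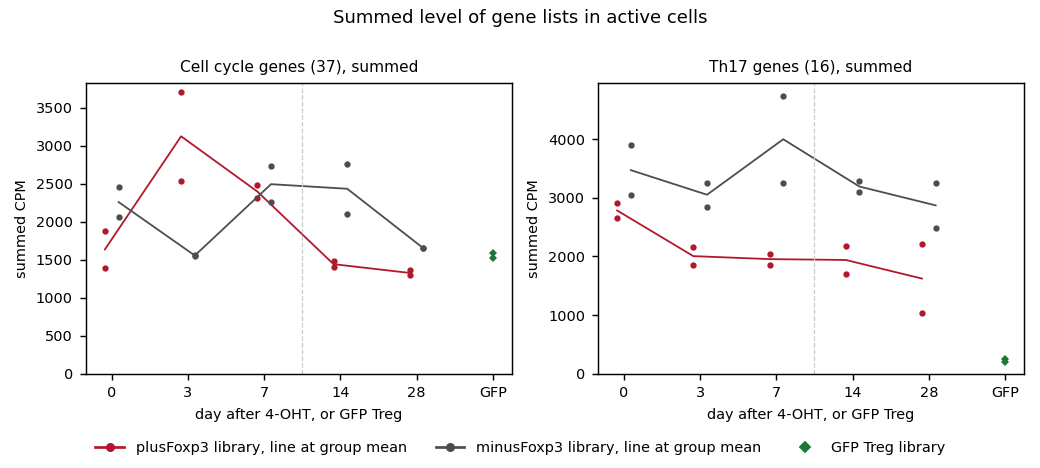
Summed CPM of the 37 cell cycle genes and the 16 Th17 genes in each active library, by day after 4-OHT. Points are libraries, lines join group means, diamonds are GFP Treg cells, and the dashed line separates early from late days. Cell cycle sums in plusFoxp3 cells go from 2537 and 3708 at day 3 to 1293 and 1359 at day 28, while minusFoxp3 sums are highest at days 7 and 14.

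Among 27 listed surface and effector genes of Treg cells, 26 were tested, 5 rose, 0 fell, and 23 values were above 0, with a median of 0.51. In 11 of them every late library was above every early one. Over all genes tested, 3.88% had every late library above and 0.361% rose. Without the day 3 replicate 2 library 1 of the list rose (Klrg1), without the day 14 replicate 2 library 2, without the day 28 replicate 2 library or either day 7 library 3, with days as replicates 2, and without day 3 or day 28 0 did. Klrg1, a receptor of terminally differentiated effector Treg cells (chromosome 6, 122247555 to 122259841), had the largest log2 fold change of the named genes that rose. It was at 0.977 and 1.08 CPM at day 3, 5.22 and 2.59 at day 7, 8.29 and 9.5 at day 14, and 70.3 and 19.5 at day 28, and at no more than 0.714 CPM in minusFoxp3 libraries. The levels were higher on each later day, and the log2 fold change was 3.31 (SE 0.52, adjusted p = 0.00340 by edgeR). Tnfrsf9 (4-1BB), a costimulatory receptor induced in activated Treg cells, was at 48.3 and 36.4, 51.0 and 57.4, 58.5 and 100, and 189 and 316 CPM on the 4 days, a log2 fold change of 1.56 (SE 0.27, adjusted p = 0.00582 by edgeR). Its late libraries were above the early ones, and all were below the 805 and 603 CPM of GFP Treg cells. Itgb8, the integrin chain that helps to activate TGF-beta, Ebi3, a subunit of interleukin 35, and Cd83 also rose, by 2.08, 1.34 and 0.77. Of the receptors often used to define Treg cells, Tnfrsf18 (GITR) had a value of 0.57, Il2ra of 0.19 and Ctla4 of 0.10. None of the 3 passed, nor did Lrrc32 and Izumo1r, at 0.85 and 0.59.

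Ly6a gave the smallest p-value of the genes that rose and was the gene that rose in each alternative tried. It encodes Sca-1, a GPI-anchored surface protein of activated lymphocytes (chromosome 15, 74866726 to 74869880). Its level was 253 and 181 CPM at day 3, 447 and 353 at day 7, 867 and 900 at day 14, and 1191 and 997 at day 28. The minusFoxp3 libraries ranged from 129 to 180 CPM over the same days, so late plusFoxp3 libraries stood above all others, the GFP Treg libraries (449 and 633 CPM) included. The log2 fold change was 1.74 (SE 0.16, adjusted p = 0.000107 by edgeR), and the difference from the minusFoxp3 change was 1.67 (SE 0.22, edgeR adjusted p = 0.00821). Its neighbour in the same family, Ly6i, had a log2 fold change of 1.68 at 10.3 CPM late, and reads that Ly6 family members share could be counted for either.

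Of 22 listed transcription factors of Treg cells, Ikzf2 rose and 0 fell, with a median of 0.08. Over all genes tested, 0.361% rose and 0.953% fell. Ikzf2 encodes Helios, a factor that stabilises Treg cells, and was at 95.9 and 54.0 CPM at day 3, 82.1 and 86.0 at day 7, 122 and 158 at day 14, and 176 and 298 at day 28. Every late library was above the early ones, while the 661 and 612 CPM of GFP Treg cells were higher still (log2 fold change 1.2, SE 0.22, edgeR adjusted p = 0.00906). The call held in 11 of 18 alternatives and was lost without replicate 2 of day 3 or of day 14, without replicate 1 of day 7, without day 3, day 7 or day 28, and with days as replicates. Its relative Ikzf4 (Eos) had a value of 0.59 and did not pass. Of 18 factors and receptors of naive and memory T cells, Myb fell by 0.82, a call that held in 7 of 18 alternatives, and none rose.

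Genes of type 1 and cytotoxic cells formed a further group with positive values, 20 of 22, with a median of 0.57. Gzmb, Cxcr3 and Ccl5 rose and 0 fell, where 0.361% of all genes rose. Gzmb (granzyme B) was at 62.9 and 53.6 CPM at day 3, 130 and 130 at day 7, 189 and 227 at day 14, and 188 and 246 at day 28. The minusFoxp3 cells reached 192 and 110 CPM at day 14 and were at 41.2 and 37.9 CPM at day 28, so that the arms overlapped until day 14. Its log2 fold change in plusFoxp3 cells was 1.29 (SE 0.22, edgeR adjusted p = 0.00611), and GFP Treg cells had 31.4 and 64.4 CPM. Cxcr3, the receptor that guides cells to sites of type 1 inflammation, was at 44.5 to 85.9 CPM early and 108 to 352 CPM late, a log2 fold change of 1.45 (SE 0.27, adjusted p = 0.0102 by edgeR). One library carried part of this group. Day 28 replicate 1 had 189 CPM of Nkg7, a cytotoxic granule gene, against at most 27.0 CPM in the other late libraries, and it was also the highest for Cxcr3, Ccl5, Klrg1, Mmp9 and Csf1. Without that library Gzmb rose and Il18r1 fell, Cxcr3 and Ccl5 had values of 1.07 and 2.03 without passing, and the median of the group was 0.29. Without the day 3 replicate 2 library, without day 3 and without day 28 0 genes of the group were called, and without the day 7 replicate 2 library 1 was.

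**Figure D3:**
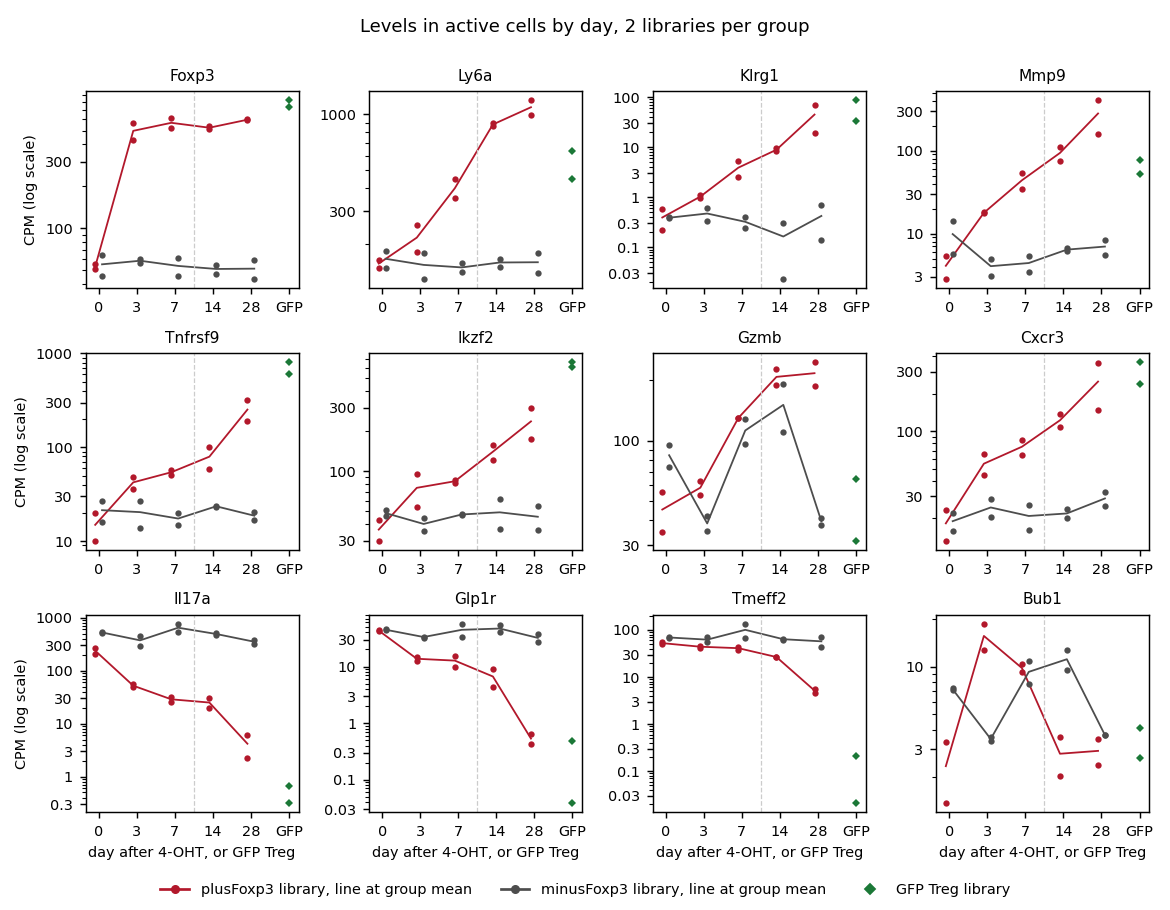
CPM on a log axis for 12 genes in each active library, by day after 4-OHT, with lines joining group means and GFP Treg cells at the right. Foxp3 is at 427 to 613 CPM in plusFoxp3 cells, and Ly6a, Klrg1, Mmp9, Tnfrsf9, Ikzf2, Gzmb and Cxcr3 are higher at days 14 and 28 there, while Il17a, Glp1r, Tmeff2 and Bub1 are lower.

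Genes of migration moved in both directions. Of 26 tested, 3 rose and 2 fell, where 0.361% and 0.953% of all genes did, and the median was 0.06. Without day 28 and with days as replicates 0 were called, without day 3 1 fell, and without the day 3 replicate 2 library 1 rose and 1 fell. The median was -0.06 without the day 28 replicate 1 library. Mmp9, a secreted protease that degrades matrix (chromosome 2, 164782700 to 164797770), was at 17.5 and 18.1 CPM at day 3, 53.6 and 34.3 at day 7, 75.7 and 112 at day 14, and 404 and 157 at day 28, while minusFoxp3 libraries held 3.11 to 8.37 CPM. The late libraries lay above the early ones (log2 fold change 2.54, SE 0.34, edgeR adjusted p = 0.00124). Cxcr5, which directs cells to B cell follicles, rose by 1.23, a call that held in 6 of 18 alternatives. Gpr15, a receptor for homing to the large intestine, and Ccr4, a receptor for homing to skin, fell by 0.87 and 0.50. Gpr15 was called in 15 and Ccr4 in 9 of 18 alternatives. Other named genes that rose were the cytokine gene Csf1 (1.99), the IgM Fc receptor Fcmr (3.08), the interleukin 1 antagonist Il1rn (1.81), the peptidoglycan-binding protein gene Pglyrp1 (1.58), the neuronal surface protein gene Nrn1 (1.49), Ky (2.56) and Fam241b (1.5). For Fcmr and Il1rn the minusFoxp3 values were 2.35 and 1.69, and the differences between the arms, 0.73 and 0.11, did not pass. Il1rn was called as higher in plusFoxp3 cells in 6 of 18 alternatives.

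Genes of Th17 cells mostly had negative values, 13 of 16, with a median of -0.41. Over all genes, 9593 of 20776 values were below 0. Of the 16, 1 fell and 0 rose, where 0.953% of all genes fell and 0.361% rose. The gene that fell was Il17a, the signature cytokine (chromosome 1, 20801129 to 20804720). It was at 55.9 and 48.1 CPM at day 3, 25.4 and 32.1 at day 7, 30.3 and 19.6 at day 14, and 2.28 and 6.06 at day 28. Day 14 overlapped with day 7, and the step from day 14 to day 28 alone had a log2 fold change of -2.59 (SE 0.38, adjusted p = 0.0148 by edgeR). Late against early it was -1.92 (SE 0.26, edgeR adjusted p = 0.00124). The call held in 15 of 18 alternatives, and without day 3, without day 28 and with days as replicates no gene of the list was called. In minusFoxp3 cells Il17a ranged from 289 to 753 CPM without a called change. Il17f, at 2.73 CPM late and 7.38 CPM early, and Il22 had values of -1.53 and -2.51 and did not pass. Csf2, also of this list, had a value of 2.06 in the other direction and did not pass. It was called in 4 of 18 alternatives. The summed Th17 list was at 1846 to 2164 CPM early and 1039 to 2206 CPM late, against 196 and 250 CPM in GFP Treg cells, so the late libraries were still above that reference.

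Other named genes that fell belonged to none of the listed groups. For 135 of the 198 genes that fell, the largest of the 3 steps between days was from day 7 to day 14. For 49 it was from day 14 to day 28. Over all 20776 genes the counts were 8108 and 6691. The late against early contrast weighs the step from day 7 to day 14 most, so these counts do not show when the genes fell. Glp1r, the receptor of the incretin hormone GLP-1 (chromosome 17, 31120791 to 31159765), was at 12.4 and 15.0 CPM at day 3, 15.6 and 9.82 at day 7, 8.94 and 4.38 at day 14, and 0.424 and 0.640 at day 28. MinusFoxp3 libraries held 27.0 to 55.8 CPM and GFP Treg libraries at most 0.480 CPM. The log2 fold change was -2.81 (SE 0.34, adjusted p = 0.000835 by edgeR), and the step from day 14 to day 28 alone had -3.64. Pdzrn3, a ubiquitin ligase gene (chromosome 6, 101126570 to 101354858), was at 3.12 ± 2.12 CPM early (SD, n = 4) and 0.401 ± 0.471 CPM late (SD, n = 4), a log2 fold change of -3.80, and its difference from minusFoxp3 cells was the largest called, at -4.04. Tmeff2 and Mstn, which encodes the growth factor myostatin, had log2 fold changes of -1.86 and -1.70. Myof, Peli2, Stmn2 and the fatty acid receptor gene Cd36 were the other named genes that fell, by 2.12 to 2.54. Cd36 was called in 7 and Stmn2 in 8 of 18 alternatives. Between day 14 and day 28 in plusFoxp3 cells 9 genes were called (0.0433%), 2 higher and 7 lower, among them Nrn1, Il17a, Glp1r, Tmeff2, Pdzrn3, Mstn and Fgf18. With the 4 compared libraries alone 0 were.

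**Figure D4:**
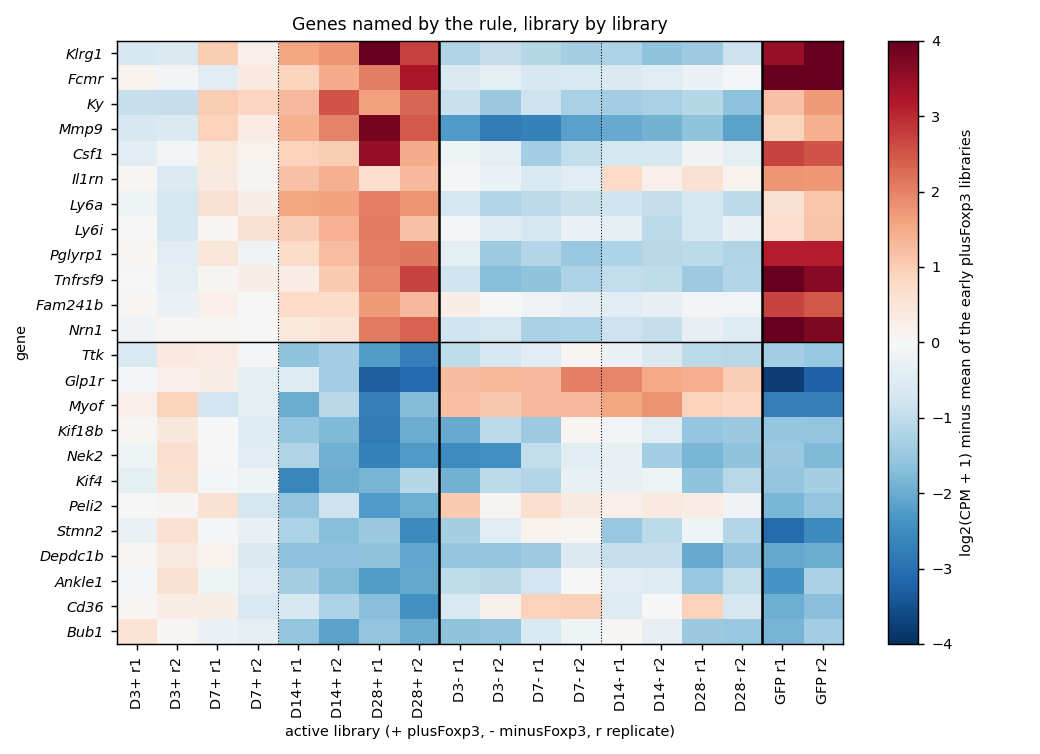
Log2(CPM + 1) of the 24 genes named by rank, in each library of days 3 to 28 and in GFP Treg cells, minus the mean of the 4 early plusFoxp3 libraries. Red is above and blue below that mean. The upper 12 genes are red in the late plusFoxp3 libraries and the lower 12 blue.

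Most remaining lists had few or no called genes, where 0.361% of all genes rose and 0.953% fell. Of 8 Gimap genes, which encode GTPases of lymphocyte survival, Gimap7 and Gimap6 rose by 0.78 and 0.48, and all 8 values were above 0, with a median of 0.31. The minusFoxp3 median was 0.28, and 3 of the 8 genes had every late minusFoxp3 library above every early one (1.76% of all genes). Without day 3 or day 28 no Gimap gene was called in plusFoxp3 cells. Among 24 costimulatory and inhibitory receptors Tnfrsf9 and Cd27 rose, and 0 did without day 3, without day 28 or without the day 3 replicate 2 library. Among 30 genes of T cell receptor signalling Cd3e rose by 0.36, and among 10 CD4 T cell markers Cd3e and Cd2 rose. Cd3e was called in 5 and Cd2 in 6 of 18 alternatives. Cd3e was lost without any 1 library or day. No member was called among 36 interferon-stimulated, 35 immediate-early and stress, 24 glycolysis and hypoxia, 29 sterol and fatty acid, 37 oxidative phosphorylation, 51 ribosomal protein, 20 NF-kB, 18 survival and 17 interleukin 2 and 7 pathway genes. Their medians lay between -0.17 and 0.20. In minusFoxp3 cells 2 interferon-stimulated genes had every late library below every early one (1.33% of all genes). Of the markers of other cell types, the myeloid sum was 188 to 220 CPM early and 248 to 297 CPM late, nearly all of it Cst3 (192 and 252 CPM), and Epcam, listed as a stromal and epithelial marker, rose from 2.83 to 11.4 CPM, with 86.8 and 88.4 CPM in GFP Treg cells. The part of other cells in these results was not tested.

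**Figure D5:**
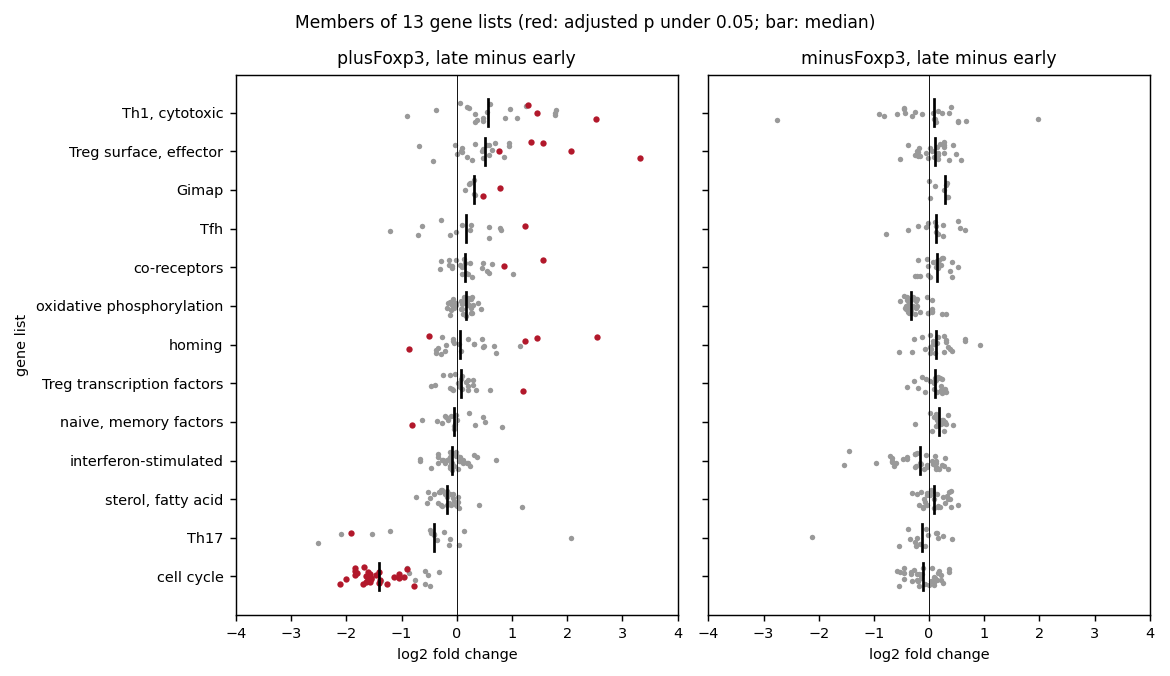
Each point is a member of a gene list, with its log2 fold change of late against early days in plusFoxp3 cells at the left and minusFoxp3 cells at the right. Red points passed the test and bars are medians. The cell cycle list has a median of -1.42 at the left and -0.11 at the right.

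The direction of the 273 changes was set against that of GFP Treg cells relative to day 0 minusFoxp3 cells. Neither group mean in that comparison uses any of the 8 libraries. Its test shares an estimate of the spread with them, so the counts that passed are not independent of the 273 calls. Of the 75 genes that rose, 69 (92.0%) were higher in GFP Treg cells, where 50.4% of all genes were, and 58 passed the test, as 5.21% of all genes did in that direction. Of the 198 that fell, 192 (97.0%) were lower in GFP Treg cells, where 49.6% of all genes were, and 95 passed, against 4.79% of all genes. The late libraries had not all reached the reference level. For 42 of the 75 genes all 4 late libraries were below both GFP Treg libraries, and for 54 of the 198 all 4 were above both.

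Active and resting plusFoxp3 cells were also compared for their change over time. The test of that difference called no gene (0% of 20790) with edgeR, 1245 had an unadjusted p under 0.05, and DESeq2 called 15. In resting cells the 75 genes that rose in active cells had a median change of 0.42, with 63 values above 0, and the 198 that fell had a median of -0.16, with 154 below 0. The cell cycle list had a median of -0.10 in resting and -1.42 in active cells. Resting replicates were far apart for these genes, with Top2a at 125 and 35.6 CPM in the day 14 pair. Ly6a was at 162 to 270 CPM early and 227 to 533 CPM late in resting cells.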

How the data were processed

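RNA of sorted cells was amplified with the SMART-Seq v4 kit. The deposited values are raw counts of read pairs per gene, which the authors made with STAR, per the study's methods (the submitters' processing notes list Bowtie2), and featureCounts 2.0.3, without strand, on GRCm39 with GENCODE M30 gene names, per the file headers. Reads of antisense or near-identical genes can therefore be assigned to either gene. The 20 degron libraries of the series were not used.

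Samples were grouped by title. Genes whose counts averaged 10 or more across the 22 active libraries were fitted with edgeR 4.0.16 in R 4.3.3 (TMM, robust quasi-likelihood F test, 1 mean per group), and the resting comparison was fitted over 44 libraries. The study's own test, DESeq2 (1.42.0), was an alternative, beside RLE size factors, no count filter, a replicate block, the compared libraries alone, days as replicates, and leaving out each day or library. SE is the fold change divided by the square root of F. The scripts were tested on simulated data. Totals of the 16 active libraries were 40813000 to 57419138 read pairs. No replicates agreed within sampling noise.

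Named genes are Foxp3; in each direction, up to 12 called genes ranked by size of change, averaging 100 or more counts in the 8 libraries, with late and early not overlapping; up to 5 per direction for the difference between arms and 3 for minusFoxp3 cells, by p where fewer than 3 passed; and up to 4 per gene list. Predicted genes and receptor segments were left out of the ranks. Members and lists were chosen with earlier results of these data known. Further genes are named as members of a counted set. Some genes are not reported here.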

Additional observations from a re-analysis of the deposited data

Results flagged for a closer look

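The change from early to late days differed between plusFoxp3 and minusFoxp3 cells for 18 genes, by the edgeR test of the difference itself. The named ones were Ly6a at 1.67, Bub1 at -2.29, Glp1r at -2.82, Nek2 at -2.73, Pdzrn3 at -4.04 and Zfp385c at -2.57, each the plusFoxp3 minus the minusFoxp3 log2 fold change. For Ly6a, Glp1r and Zfp385c the plusFoxp3 and minusFoxp3 libraries did not overlap on any of the 4 days, and for Pdzrn3 they overlapped at day 3. Bub1 was higher in both plusFoxp3 than in both minusFoxp3 libraries at day 3 and lower in both at day 14. With 2 libraries per group no single library could be tested for standing apart.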

How the results depend on the processing

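The 273 late against early calls in plusFoxp3 cells became 614 with DESeq2, 953 without the count filter, 40 without day 3 and 1 without day 28, and 109 to 260 when 1 library was left out. Calls in minusFoxp3 cells went from 0 to 152 without the filter, and to between 0 and 754 without 1 library. The 18 differences between arms became 304 with DESeq2, 861 without the filter, 28 with the compared libraries alone, 61 without day 7, and 0 without day 3, without day 28 and with days as replicates, and were 2 to 1423 without 1 library. The active against resting difference went from 0 to 15 with DESeq2, 424 without the filter and 1 without day 14, and was 0 to 1 without 1 library. Day 7 against day 3 called 7 genes with DESeq2, 138 without the filter and 0 to 2 without 1 library; day 14 against day 7 called 24, 198 and 0 to 1, and 7 with the compared libraries alone; day 28 against day 14 called 71, 405 and 0 to 20, and 0 with the compared libraries alone. Fewer libraries enter when a day is left out, and the cause of the other changes was not tested. No label says that a replicate number marks a shared animal, litter or day, and the correlation of deviations between libraries sharing a number ran from -0.174 to 0.168 across arms, -0.0819 to 0.123 within plusFoxp3 and -0.0297 to 0.238 within minusFoxp3 cells. Since not every pair was over 0.1, the numbers were not taken as pairs, although in minusFoxp3 cells days 7, 14 and 28 had 0.159, 0.238 and 0.164. With the replicate block the counts were 296 in plusFoxp3 and 0 in minusFoxp3 cells and 16 for the difference between arms, and the block changed no other count by over 1.5 times. The block was a single term shared by both arms and the GFP Treg cells, so it does not account for a replicate split in minusFoxp3 cells alone.

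Of the values of single named genes under an alternative, 2245 kept direction and call, 292 lost and 78 gained a call, and 18 changed sign, none of a called gene. Foxp3 was at -0.021 without day 28, -0.032 without day 3 and -0.022 to 0.185 without 1 library. Cd44 was at -0.067 without day 28 and -0.031 to 0.187 without 1 library. Cd8a was at 1.279 without day 3, 0.826 without day 28 and -1.423 to 0.286 without 1 library. Hba-a1 and Hbb-bs were at 0.646 and 0.987 without day 3, and at -1.589 to 0.541 and -1.529 to 0.628 without 1 library. Cd14 was at -0.026 without day 3, Ier3 and Klrb1c at -0.176 and -0.005 without day 28, and Myc at 0.076 without day 14. With 2 libraries per group, leaving out 1 left a lone library that was assumed to vary like the other groups.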

Other observations

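Some genes went past the level of GFP Treg cells. For 9 of the 75 genes that rose, all 4 late plusFoxp3 libraries lay above both GFP Treg libraries. Besides Ly6a and Gzmb, those with a standard name were Marcks, a substrate of protein kinase C (68.7 to 95.3 CPM late, 14.2 and 25.8 CPM in GFP Treg cells), the non-coding RNA gene Miat (14.3 to 34.3 against 2.09 and 4.35 CPM) and the small GTPase gene Rap2a (26.1 to 42.2 against 16.9 and 20.7 CPM). For 21 of the 198 genes that fell, all late libraries lay below both GFP Treg libraries, among them the replication genes Mcm3, Mcm5 and Mcm7 and the DNA methyltransferase gene Dnmt1 (69.9 to 77.0 against 85.3 and 120 CPM). These genes were picked after their values were seen, and late plusFoxp3 cells were not tested against GFP Treg cells.

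Ighm, the constant region of IgM, was at 761 to 1289 CPM early and 1294 to 2330 CPM late in plusFoxp3 cells, 216 to 370 CPM in minusFoxp3 cells and 3797 and 3924 CPM in GFP Treg cells. It rose by 0.71 (edgeR test, called). Of the 12 B cell markers 7 had values above 0 and 0 were called. Cd22 was at 0.937 CPM early and 3.61 CPM late, and Blk at 57.5 and 34.5 CPM, neither passing. The part of B cells in this result was not tested.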
